A study of Mus musculus with 12 samples.

Results

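Splenic B cells that had divided 5 times after lipopolysaccharide (LPS), the fraction called Div5, were compared with undivided cells (Div0) at single-CpG resolution. Both fractions came from the same 2 host mice, numbered 196 and 197, so 4 of the 12 libraries of the study were compared, 2 Div5 and 2 Div0. The other 8 entered the estimates of spread. All 760348 CpGs covered by at least 10 reads in each of the 12 libraries entered the comparison. B220+ CD43- splenic B cells of naive mice, C57/BL6J by the study's design text and B6.SJL-Ptprca Pepcb/BoyJ, female and 8 weeks old by the sample labels, were stained with a dye, CFSE or CTV, whose signal per cell drops with division. They were injected into uMT mice, which cannot make mature B cells of their own, and the hosts were given LPS after a night of rest. At day 3 after LPS the transferred cells were sorted from the spleen as Div5, Div1, Div3 and Div0. Cells past at least 8 divisions were split by CD138, a plasma cell marker, into Div8neg (Div8-, no CD138) and Div8pos (Div8+, with CD138). The Div0 cells had been in the same LPS-treated hosts and are not untreated cells. Labels tie each library to 1 host and do not say how many donors supplied the cells, so p-values speak for these libraries alone. The test of single CpGs used the same dispersion for all CpGs. Its p-values therefore do not measure the spread between the hosts at a given CpG.

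Methylation of cytosine at CpG dinucleotides is copied onto the new DNA strand by the maintenance methyltransferase Dnmt1 after replication. A CpG that is not copied loses its mark in step with division, while TET enzymes oxidise methylcytosine and can start its removal without division. Activated B cells divide in vivo before some of them become plasma cells, and enhancers are among the places where such cells are known to lose the mark. Reduced representation bisulfite sequencing (RRBS) reads CpGs near the cut sites of chosen restriction enzymes, here MspI and TaqI. The methylation level of a CpG is the percent of its reads that kept a cytosine after bisulfite, which does not tell methylcytosine from hydroxymethylcytosine. In a sorted bulk fraction, a change within cells cannot be told apart from a change in the mix of cells.

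The Div5 libraries held 19961643 reads over these CpGs in host 196 and 49530616 in host 197, against 17969105 and 45423158 reads in the Div0 libraries of the same hosts. Over all 12 libraries the sums ran between 17969105 and 56775157. Median coverage per CpG was 23 and 57 reads at Div5 and 20 and 52 reads at Div0 in hosts 196 and 197. At these depths the 95% Wilson interval of a level near 50% ran between 29.2 and 67.0% in the Div5 library of host 196 and between 36.6 and 61.7% in that of host 197, and between 29.9 and 70.1% and between 36.9 and 63.1% in the Div0 libraries of those hosts. Intervals cover counting error only, since the reads carry no molecular identifiers. Among genes that mark cell types, those measured within 1 kb of their start gave the following picture of methylation, which is not a measure of their RNA. Of 7 B cell markers 4 were measured, with summed levels of 56.1 and 62.1 points at Div5 and 69.3 and 80.9 points at Div0, nearly all of it at Blnk (54.2% and 68.7%). Pax5 lay at 0.444% and 0% at Div5 and Div0. Of 7 T cell markers 3 were measured, with summed levels of 217.5 and 210.0 points at Div5 and 224.5 and 229.5 points at Div0. Cd3e stood at 95.9% and 97.2% at Div5 and Div0, Cd2 at 90.15% and 95.72%, and Lck lower at 27.7% and 34.1%. The single measured NK cell marker, Prf1, lay at 94.9% and 96.0%, the single erythroid one, Epor, at 72.4% and 71.1%, and no myeloid marker was measured. The 4 measured plasma cell markers of 5, Sdc1, Prdm1, Irf4 and Xbp1, lay between 1.26 and 8.90% at Div5 and between 1.42 and 9.02% at Div0. The part of other cell types in the results was not tested.

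By the fifth division 936 CpGs had lower methylation than in undivided cells and 42 had higher methylation. These are 0.123% and 0.00552% of the CpGs tested. A CpG was called when a quasi-binomial test on its methylated and unmethylated reads gave a Benjamini-Hochberg adjusted p under 0.05 and the mean levels of the 2 fractions differed by at least 20 percentage points. The lower CpGs had a median difference of -38.5 points and the higher CpGs one of +30.1 points. Without the size limit 1071 CpGs were lower and 51 higher at the same adjusted p, and at an unadjusted p under 0.05 there were 37290 lower and 15404 higher. In 925 of the 936 lower CpGs and in 42 of the 42 higher ones the Div5 and Div0 libraries did not overlap, against 16.7% of all CpGs with both Div5 libraries below both Div0 libraries and 10.1% with both above. A difference of at least 20 points was present in each host at 793 of the lower and 29 of the higher CpGs. Close to the limit, 116 lower CpGs differed by under 25 points, among them Sppl3 (-20.1 points) and Cd86 (-20.2 points). The mean over all CpGs differed by -0.736 points in host 196 and -0.844 in host 197 (mean -0.790 ± 0.0763 points, SD, n = 2 hosts, exact permutation p = 0.3333, two-sided, the smallest that 2 against 2 allow). Weighted by coverage, as methylated over total reads summed over all CpGs, the difference was -2.35 points.

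The count of lower CpGs depended on the deeper host and on how the spread was estimated. It was 273 without the Div5 library of host 197, 319 without its Div0 library, 762 and 930 without the Div0 and the Div5 library of host 196, and 278 with limma on the percentages. With each CpG's own estimate of dispersion in place of the pooled one, no CpG passed the adjusted p (smallest 0.962), while 2593 CpGs were lower and 500 higher by at least 20 points at an unadjusted p under 0.05. The higher CpGs numbered 5 without the Div5 library of host 197, 15 and 24 without the Div0 libraries of hosts 197 and 196, and 8 with limma.

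The lower CpGs stood at intermediate levels at Div1 and Div3. Their median level in hosts 196 and 197 was 81.5 and 81.4% at Div0, 74.2 and 74.3% at Div1, 58.4 and 57.4% at Div3 and 35.7 and 32.1% at Div5. It was 26.5 and 26.6% in Div8neg and 10.0 and 9.09% in Div8pos, so the 2 hosts lay within 4 points of each other at each stage. None of the 936 was called lower at Div1 by the quasi-binomial test (0.0% of all CpGs), and 191 (20.4%) were called at Div3 (0.027% of all CpGs). At an unadjusted p under 0.05, 196 of the 936 were lower at Div1, a count for which no share of all CpGs is given as background. At Div0 500 of the 936 were at 80% or more, 252 between 60 and 80%, 130 between 40 and 60% and 54 between 20 and 40%. At Div5 280 were under 20%, 264 between 20 and 40%, 219 between 40 and 60% and 173 between 60 and 80%. The levels at Div5 and Div0 chose these CpGs and are a description, and so are the other fractions' levels, since they are set against the Div0 libraries that served the choice.

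**Figure D1:**
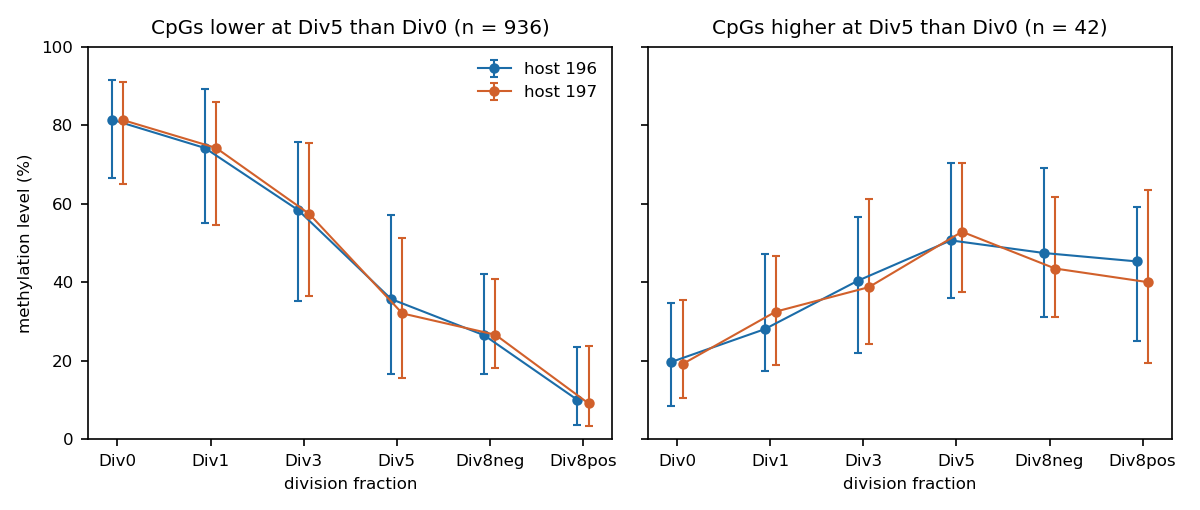
Median methylation level (%) of the 936 lower CpGs and the 42 higher CpGs in each division fraction, with 1 line per host and bars over the middle 50% of the CpGs. The lower CpGs stood at 81.5 and 81.4% in Div0, at 35.7 and 32.1% in Div5 and at 10.0 and 9.09% in Div8pos, and the higher CpGs were highest at Div5.

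Most of the early losses were still present in the cells past 8 divisions. Of the 936 lower CpGs, 809 (86.4%) were also called lower than Div0 in Div8neg and 911 (97.3%) in Div8pos. Of all CpGs tested, 0.781% were lower in Div8neg and 6.61% in Div8pos, and these comparisons use the same Div0 libraries as the one at Div5. The loss was called in both fractions at 797 CpGs, in Div8pos and not in Div8neg at 114, in Div8neg and not in Div8pos at 12, and in neither at 13. A missing call is not a return to the Div0 level. Within 10 points of Div0 lay 12 of the 936 in Div8neg and 7 in Div8pos. The early losses made up 13.6% of the 5935 CpGs lower in Div8neg and 1.81% of the 50284 CpGs lower in Div8pos. Relative to Div5, 142 of the 936 were at least 20 points lower still in Div8neg and 381 in Div8pos, while 20 and 5 had come back by at least 20 points. Div8neg was tested against Div5 itself, without the Div0 libraries, and there 40 of the 936 were lower and 5 higher by the same 2 limits. The Div5 libraries helped to choose the called CpGs, so part of a return from the Div5 level is built into this comparison. No share of all CpGs is given for the changes from Div5, and whether the 936 moved more than other CpGs was not tested.

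At 5 CpGs Div8neg was higher again than Div5, whose libraries had helped to choose them. They carry the symbols Blnk, Pik3ap1, Arfip1 and Ffar2, the last upstream of the gene, with 1 between genes on chromosome 8. Blnk and Pik3ap1 encode adaptors of the B cell receptor, and Ffar2 is a receptor for short-chain fatty acids. The Ffar2 CpG, chr7:31616653 of mm9, was at 15.6 and 12.9% at Div5 (95% Wilson intervals 6.86 to 31.8 and 7.54 to 21.2%) and at 87.2 and 83.5% at Div0 (74.8 to 94.0 and 74.6 to 89.7%). Its level was 44.4 and 47.3% in Div8neg and 20.7 and 28.5% in Div8pos, so the 2 hosts moved together. The intronic Blnk CpG at chr19:41066259 was at 0 and 6.74% at Div5 (intervals 0 to 14.9 and 3.13 to 13.9%) and 33.3% in both hosts at Div0 (19.2 to 51.2 and 22.5 to 46.3%). Div8neg was at 31.0 and 26.1% while Div8pos was at 2 and 6.78%. The Pik3ap1 CpG at chr19:41441061 averaged 10.3 ± 6.12% at Div5 and 40.1 ± 14.1% at Div0 (SD, n = 2 hosts each), with 28.0 and 38.0% in Div8neg. The 13 CpGs called in neither division 8 fraction lie nearest to Nck2, Tex35, Strada, Cdh6, Fam135b, Fam186b, Lclat1, Tgm2, Ptpn1, Cyp2u1, Hvcn1, Nup62-il4i1 and Cdyl2. They are named because they are few and were chosen after their values were seen. The intronic CpG of Hvcn1, the voltage-gated proton channel of B cells, was at 4.35 and 6.25% at Div5 and 53.9 and 33.3% at Div0, and its Div8neg and Div8pos libraries lay between 15.4 and 26.9%.

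The losses were also followed in the host that had not been used to choose them. Fisher's exact test with the same limits in host 196 alone gave 76 lower CpGs. In host 197 all 76 were lower at Div5 than at Div0 by at least 20 points, with median levels of 20.0% at Div5 and 81.9% at Div0. Host 197 still showed the loss of at least 20 points at 74 of them in Div8neg and at 76 in Div8pos. The deeper host 197 gave 797 lower CpGs. Of these, 752 were lower at Div5 in host 196 and 575 by at least 20 points, with median levels of 36.8% at Div5 and 81.0% at Div0. In host 196 the loss of at least 20 points was there at 648 of the 797 in Div8neg and at 700 in Div8pos. The median difference was -54.0 points for the 76 and -34.4 points for the 797 in the host not used, and -64.4 and -43.0 points in the host that chose them. Of all CpGs, 53.63% were lower at Div5 by the mean of both hosts. The shares within a single host, with or without the 20 points, are not given, so these counts lack a matched background.

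**Figure D2:**
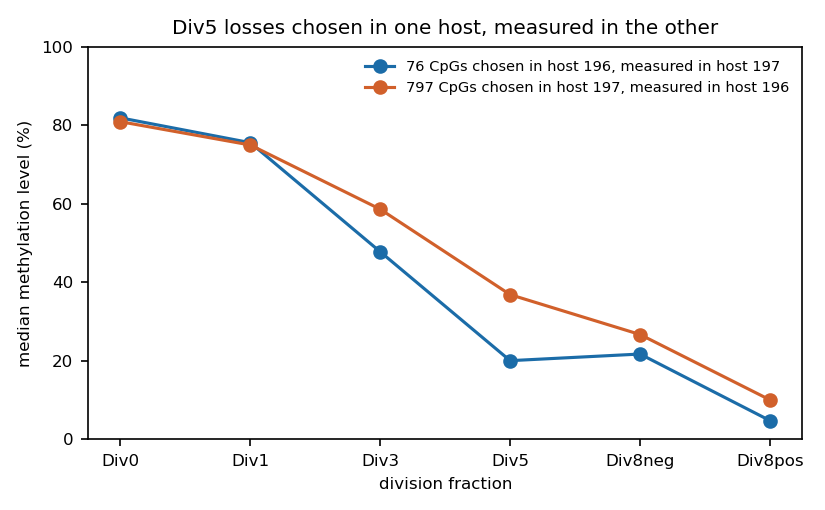
Median methylation level (%) by division fraction of CpGs chosen as lower at Div5 in 1 host, measured in the other host. The 76 CpGs chosen in host 196 were at 20.0% at Div5 and 81.9% at Div0 in host 197, and the 797 chosen in host 197 were at 36.8% and 81.0% in host 196.

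The gains were few. The 42 higher CpGs had median levels in hosts 196 and 197 of 19.7 and 19.2% at Div0, 28.0 and 32.5% at Div1, 40.4 and 38.8% at Div3 and 50.7 and 52.9% at Div5, then 47.5 and 43.5% in Div8neg and 45.3 and 40% in Div8pos. Of the 42, 20 (47.6%) were also called higher in Div8neg and 18 (42.9%) in Div8pos, where 0.0397% and 0.0271% of all CpGs were higher. By these calls both fractions held 10 of the gains and neither held 14, while 7 of the 42 in Div8neg and 5 in Div8pos lay within 10 points of Div0. Chosen in host 197 alone, 29 CpGs were higher, and in host 196 25 of them moved the same way and 15 by at least 20 points. Of all CpGs, 41.25% were higher at Div5 by the mean of both hosts. The 2 chosen in host 196 were not 20 points higher in host 197. By position 20 gains were intronic, 14 intergenic, 3 in promoters, 3 exonic and 2 in 3′ UTRs, and no 3 of them lay together as a region. Among CpGs with room to rise by 20 points, 0.0116% were higher. The share was 0.0219% in introns, 0.023% between genes, 0.00256% in promoters, 0.00621% in exons and 0.0572% in 3′ UTRs.

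The largest gain, at chr5:149777811 between genes without a symbol, stood at 91.7 and 79.1% at Div5 (95% Wilson intervals 64.6 to 98.5 and 64.8 to 88.6%) and at 21.7 and 35.4% at Div0 (9.66 to 41.9 and 24.9 to 47.5%). The Div5 and Div0 libraries did not overlap. An intronic CpG of Etv6, which encodes an ETS family repressor needed to form blood cells, was at 74.1 and 81.1% at Div5 (intervals 55.3 to 86.8 and 65.8 to 90.5%) and at 39.4 and 40% at Div0 (24.7 to 56.3 and 27.6 to 53.8%), with 86.7 and 76.0% in the Div8neg libraries. A CpG 40550 bp from the start of Fos, an immediate early transcription factor gene, was at 52.4 and 53.2% at Div5 and 14.3 and 20.0% at Div0, and 76.2 and 62.1% in Div8neg. An intronic CpG of Wbp1l averaged 74.3 ± 0.930% at Div5 and 36.7 ± 2.68% at Div0 (SD, n = 2 hosts each). The other gains named by size were at Luc7l3, Rassf4, Zfp516, Fam53b, Ercc6l2, Plscr3 and Sorcs2, whose Div5 means lay between 43.5 and 88.6%. The Sorcs2 CpG, at 37.0 and 50.0% in Div5 and 4.76 and 13.8% in Div0, was at 0% in both Div8pos libraries. A CpG whose nearest symbol is Ddx18, far from any gene, had 96.6 and 96.9% at Div5 and 52.8 and 80.6% at Div0, and was the 1 gain lower again in Div8neg than in Div5 by the test, at 100 and 51.6% with the hosts apart.

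Promoters and introns held a larger share of early losses than exons and intergenic DNA. Among CpGs at 20% or more in Div0, which could fall by 20 points, 0.2% were lower at Div5. The share was 0.366% in promoters (83 CpGs, the window 2500 bp before to 500 bp after a start), 0.298% in introns (483), 0.141% between genes (304), 0.18% in 3′ UTRs (18), 0.173% in 5′ UTRs (7) and 0.0773% in exons (41). By distance to the nearest start the share was 0.217% under 0.5 kb, 0.384% between 0.5 and 2.5 kb, 0.246% between 2.5 and 10 kb, 0.206% between 10 and 25 kb, 0.246% between 25 and 50 kb, 0.152% between 50 and 100 kb and 0.0491% beyond 100 kb. Neighbouring CpGs share reads and regions, so these shares are a description without a test. The mean difference over all CpGs of a class was -0.351 points in promoters, -0.991 in introns, -0.377 in exons and -1.11 between genes. That mean also counts CpGs under 20% in Div0, so it is not on the same base as the share. At 20% or more were 22671 of 132376 CpGs in promoters and 214970 of 245444 between genes. Chromosome 17 had the lowest share of lower CpGs at 0.148% and chromosome 13 the highest at 0.269%. Sorted by the level in the Div0 library of the other host, the mean loss was -2.45 and -2.44 points for CpGs at 60 to 80% and -0.0722 and -0.0822 points for CpGs under 20%, in hosts 197 and 196.

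**Figure D3:**
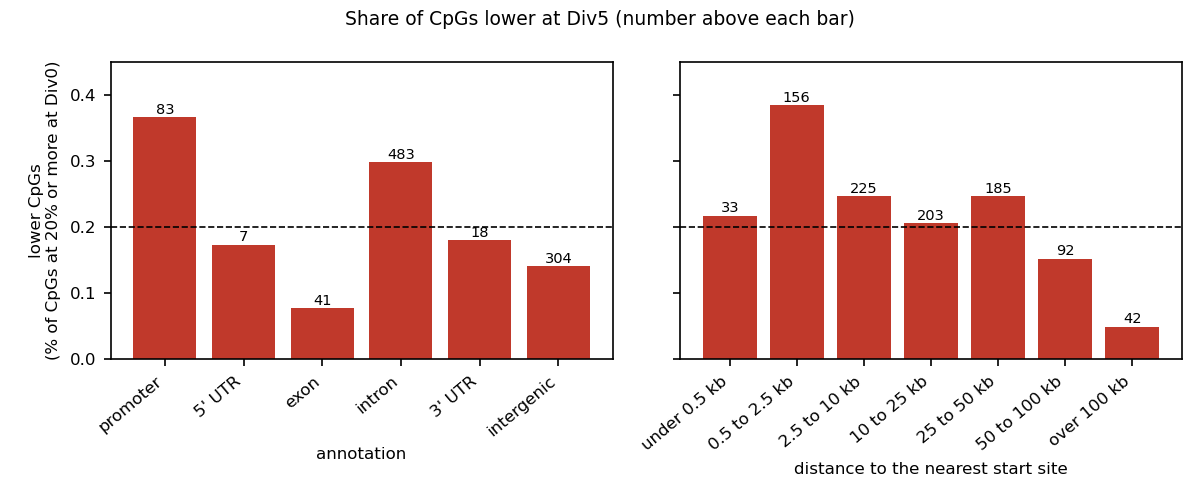
Share (%) of CpGs at 20% or more in Div0 that were lower at Div5, by annotation class (left) and by distance to the nearest start site (right), with the number of lower CpGs above each bar and the overall share of 0.2% as a dashed line. Promoters (0.366%), introns (0.298%) and each distance band up to 50 kb (0.206 to 0.384%) stand above the line, and the bands beyond 50 kb (0.152 and 0.0491%) below it.

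A called CpG lay within 500 bp of the start of 20 genes. For 3 of these the deposited positions could be placed on a RefSeq promoter sequence (250 bases before to 50 after the start, build GRCm38.p6), and those 3 are shown because they put the called CpG into its promoter. The capitals mark the CG called at Div5.
Arhgef2: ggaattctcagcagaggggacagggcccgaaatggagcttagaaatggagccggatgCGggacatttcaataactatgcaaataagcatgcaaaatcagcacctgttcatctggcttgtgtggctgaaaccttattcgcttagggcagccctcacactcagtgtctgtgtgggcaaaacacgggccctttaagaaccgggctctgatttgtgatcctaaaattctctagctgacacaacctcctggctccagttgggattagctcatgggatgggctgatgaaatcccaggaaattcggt
Cdkl4: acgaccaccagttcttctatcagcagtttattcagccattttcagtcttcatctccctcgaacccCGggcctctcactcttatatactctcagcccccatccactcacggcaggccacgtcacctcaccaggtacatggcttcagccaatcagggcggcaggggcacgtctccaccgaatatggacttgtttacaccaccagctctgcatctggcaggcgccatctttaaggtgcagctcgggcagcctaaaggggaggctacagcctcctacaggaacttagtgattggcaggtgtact
Prom1: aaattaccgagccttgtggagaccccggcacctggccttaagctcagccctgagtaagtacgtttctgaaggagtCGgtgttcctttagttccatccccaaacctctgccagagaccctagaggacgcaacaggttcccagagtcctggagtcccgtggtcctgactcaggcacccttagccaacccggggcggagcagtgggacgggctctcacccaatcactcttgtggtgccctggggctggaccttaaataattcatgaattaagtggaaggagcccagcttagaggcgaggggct
The Arhgef2 promoter (chr3:88615893-88616192, + strand) belongs to a guanine nucleotide exchange factor and holds 7 CGs, of which 4 were covered. Its called CG was at 9.09 and 15.8% at Div5 and 56.5 and 33.0% at Div0, and 2 of the covered neighbours that did not pass the test differed by -34.0 and -30.9 points. In the Cdkl4 promoter (chr17:80563785-80564084, - strand; a kinase gene related to the cyclin-dependent kinases) 2 of 10 CGs were covered, and the called one was at 34.5 and 30.1% at Div5 and 57.1 and 63.0% at Div0. The Prom1 promoter (chr5:44101687-44101986, - strand; CD133, a membrane glycoprotein of stem and progenitor cells) gave a gain at 1 of 9 covered CGs. That CG was at 35.3 and 25% at Div5 (95% Wilson intervals 17.3 to 58.7 and 14.2 to 40.2%) and at 0% in both Div0 libraries, where 0 of 16 and 0 of 39 reads allow up to 19.4 and 8.97%. Its Div8neg libraries were at 7.14 and 33.3% and its Div8pos libraries at 15.0 and 14.7%, so the hosts lay apart in Div8neg and close together in Div8pos.

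Many losses lay close together. Joining at least 3 lower CpGs at most 500 bp apart, with no higher CpG between them, gave 91 regions with a median length of 144 bp, and 355 of the 936 lower CpGs (37.9%) lay in them. Of the regions 44 were wholly intronic, 31 wholly intergenic and 9 touched a promoter, and 17 lay within 2.5 kb of a start. Over all covered CpGs of a region the median level was 29.4% at Div5 and 80.5% at Div0, and it was 25.8% in Div8neg and 8.07% in Div8pos. At 86 of the 91 the loss was at least 20 points in each host. In Div8neg 89 regions were still at least 20 points below Div0, and in Div8pos 88. Div8neg stood above Div5 in 35 regions, in both hosts in 23 of them, and Div8pos stood above Div5 in 7. The called CpGs define the regions, which therefore carry no test of their own, and the Div5 levels helped to choose those CpGs. Without the Div5 or the Div0 library of host 197 there were 21 and 28 regions.

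The region with the second most lower CpGs, 9, carries the symbol of Pik3r2, the p85β regulatory subunit of PI3K (mm9 chr8:73292577-73292717). Its promoter class goes with the nearest start, that of Ifi30 at 2015 bp, while the nearest Pik3r2 start lies 6534 bp away. The region was at 29.2 and 31.2% at Div5 and 66.6 and 68.1% at Div0. It stayed at 32.1 and 31.2% in Div8neg and 21.8 and 17.9% in Div8pos. Between Katnal1 and Hmgb1, 8 CpGs at chr5:149814151-149814447 were at 32.9 and 25.1% at Div5 and 74.6 and 72.3% at Div0. In Div8pos this interval was nearly without methylation, at 3.17 and 3.34%. Between Il10 and Mapkapk2, a kinase downstream of p38, 7 CpGs at chr1:132943327-132943608 lie 26905 bp from the Il10 start. They were at 16.7 and 12.2% at Div5 and 69.9 and 64.4% at Div0, and at 8.58 and 11.1% in Div8neg and 3.42 and 1.22% in Div8pos. Nearer to Il10, 4 CpGs at chr1:132907313-132907351 were at 4.28 and 5.12% at Div5 and 34.6 and 49.3% at Div0. Il10 encodes the anti-inflammatory cytokine interleukin 10, which activated B cells and plasma cells can make.

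The Gimap4 region (chr6:48642843-48642925, 6 CpGs), 6006 bp from the start of a GTPase gene of lymphocytes, was at 31.9 and 38.1% at Div5 and 83.1 and 84.1% at Div0. Its level was 21.7 and 23.2% in Div8neg and 4.56 and 4.67% in Div8pos. The intronic region of Cdk6, a cyclin D-dependent kinase of the G1 phase (chr5:3382393-3382515, 6 CpGs), was at 11.1 and 5.31% at Div5 and 53.9 and 45.5% at Div0. In Div8neg it was 12.8 and 7.22%, above Div5 in both hosts by under 2 points. An intronic region (chr3:84476144-84476314, 6 CpGs) carries the symbol Arfip1, a gene whose protein binds small GTPases of the Arf family. It lies 6029 bp from the nearest start, while the closest start with that symbol is 89597 bp away. The region was at 17.4 and 16.7% at Div5 and 66.7 and 79.8% at Div0. Its level in Div8neg, 37.9 and 28.6%, lay above Div5 in both hosts, and in Div8pos it was 2.46 and 0.532%. The promoter region of Chd5, a chromatin remodeller (chr4:151757029-151757259, 6 CpGs), also had Div8neg above Div5 in both hosts, with 6.86 and 6.92% at Div5 and 39.9 and 34.8% at Div0, then 18.8 and 22.7% in Div8neg and 5.18 and 2.47% in Div8pos. In Rassf3, a Ras association domain gene, an intronic region at chr10:120883189-120883304 was at 59.6 and 51.7% at Div5 and 89.1 and 94.8% at Div0.

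Gm14005 had 13 lower CpGs of 76 tested, as many as Rassf3 with 13 of 154. RefSeq lists it as Morrbid, a long noncoding RNA known in mouse myeloid cells for holding down Bcl2l11, the gene of the pro-apoptotic protein Bim. Its region of 5 CpGs at chr2:128156896-128157117 was at 11.8 and 9.18% at Div5 and 80.7 and 84.5% at Div0, the largest difference among the 10 regions with the most lower CpGs at -72.2 points. In Div8neg it was 13.6 and 22.6%, above Div5 in both hosts, and in Div8pos 0.741 and 1.88%. The last CpG of that region, chr2:128157117, had the largest loss of any CpG: 0 of 12 and 0 of 34 reads were methylated at Div5 (95% Wilson intervals 0 to 24.2 and 0 to 10.2%) and 84.6 and 89.7% of reads at Div0 (57.8 to 95.7 and 73.6 to 96.4%). In Div8neg it was at 11.8 and 42.9% and in Div8pos at 3.70 and 2.17%, with the Div8neg hosts apart. All 13 were also lower in both division 8 fractions, as were all 8 of Slc20a2 and all 7 of Mapkapk2. Foxp1 had 10 lower CpGs, of which 6 were called in Div8neg and 10 in Div8pos, and Chd5 had 6, of which 1 was called in Div8neg and 6 in Div8pos. The other single CpGs named by the size of their loss were at Mlxip, Lime1, Itgb3, Zfp362, Slc20a2, Bcl9, Hivep3 and Nfkbia. The Lime1 CpG, in the gene of a Lyn-binding membrane adaptor, was at 3.33 and 4.44% at Div5 (intervals 0.591 to 16.7 and 1.23 to 14.8%) and at 91.7 and 79.1% at Div0 (74.2 to 97.7 and 64.8 to 88.6%).

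**Figure D4:**
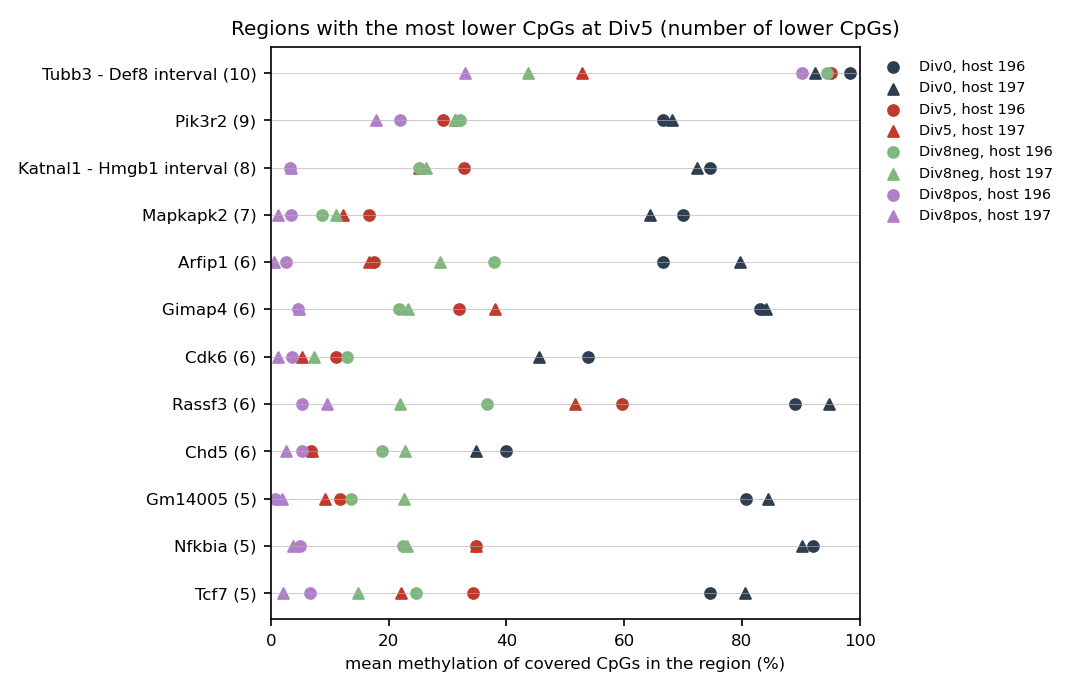
Mean methylation (%) of the covered CpGs in the 10 regions with the most lower CpGs and in the next 2, Nfkbia and Tcf7, with circles for host 196 and triangles for host 197 and the number of lower CpGs in brackets. Outside the Tubb3 to Def8 interval the Div5 symbols lie left of the Div0 symbols in both hosts, and in Arfip1, Cdk6, Chd5 and Gm14005 the Div8neg symbols lie right of the same host's Div5 symbol.

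In one stretch of chromosome 8, between Tubb3 and Def8, the hosts lay apart at Div5. Its 47 covered CpGs (chr8:125951485-125958012) include 20 lower CpGs and 4 regions, the one with the most lower CpGs, 10, among them. The mean level was 95.1% at Div5 and 96.3% at Div0 in host 196, against 54.8% at Div5 and 93.8% at Div0 in host 197. In host 197 it was 44.2% in Div8neg and 36.6% in Div8pos, and in host 196 93.5 and 89.7%. At Div3 the hosts lay together, at 78.4% in host 196 and 77% in host 197, so host 196 was lower at Div3 than at Div5. Median coverage there was 26 and 143 reads in the Div5 libraries and 25 and 69 reads in the Div0 libraries of hosts 196 and 197. Without this stretch 916 CpGs and 87 regions were lower. Among all 978 called CpGs, 5 lower ones were not lower in both hosts, 4 of them in this stretch and 1 at Emb. A test of the difference between the hosts' effects passed the adjusted p at 0 of 978 called CpGs, with 48 at an unadjusted p under 0.05.

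Gene means were taken over the CpGs with a gene's symbol that lie within 50 kb of the nearest start, which can be another gene's. By these, 17 of 16505 genes (0.103%) were lower at Div5 and 1 (0.00606%) was higher. The test was limma with an adjusted p under 0.05 and a difference of at least 10 points. Without the size limit 77 genes (0.467%) were lower and 2 (0.0121%) higher, and 1673 had an unadjusted p under 0.05, 1555 of them lower. The median difference over all genes was -0.606 points. Of the 17 lower genes 15 were also lower in Div8neg and 17 in Div8pos, where 1.49% and 15.7% of genes were lower against the same Div0 libraries. The number fell to between 5 and 11 when a library was left out (5 without the Div0 library of host 196, 7 without either library of host 197, 11 without the Div5 library of host 196) and to 9 with the 4 libraries alone. With a 5 kb window 19 genes were lower and 5 of the 17 were among them, since 8 of the 17 had too few CpGs there to be tested and 4 lost the call.

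Gimap4 changed most. Its 8 CpGs all lie at chr6:48642757-48643107 and include the 6 of the Gimap4 region above, so the gene and region results overlap. The mean for Gimap4 was 24.7 and 29.0% at Div5 and 63.2 and 65.9% at Div0, a difference of -37.7 points (SE 2.25, limma adjusted p = 0.000673). Its Div8neg libraries averaged 21.8 ± 4.62% and its Div8pos libraries 5.2 ± 1.36% (SD, n = 2 hosts each). Sp110 and Sp100, neighbouring genes of nuclear body proteins, fell by 25.8 and 11.6 points. Zfp146, a zinc finger gene, was at 67.8 and 68.1% at Div5 and 89.3 and 90.5% at Div0 (adjusted p = 0.00182, limma). Cnp, known for the myelin enzyme it encodes, was at 69.2 and 68.6% at Div5 and 83.0 and 83.6% at Div0 over 29 CpGs, none of which was called singly. These 3, Gimap4, Zfp146 and Cnp, kept the call under each alternative that could be run for them, which for Gimap4, Zfp146 and Sp110 leaves out the 5 kb window and the minimum of 10 CpGs, while Sp110 lost it in 1 of 6, and the others lost it in 3 to 6.

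Among the other lower genes, Pik3ip1, an inhibitor of PI3K, was at 38.5 and 39.9% at Div5 and 57.2 and 56.3% at Div0 (-17.5 points, limma adjusted p = 0.0344). Tnfrsf13c, the receptor for the B cell survival factor BAFF, was at 65.9 and 60% at Div5 and 76.2 and 75.8% at Div0 (-13.1 points, adjusted p = 0.0103). Swap70, a protein of activated B cells, fell by 10.3 points, but was +0.836 points with a 5 kb window. Il10 was at 60.6 and 62.0% at Div5 and 71.4 and 72.2% at Div0 (-10.5 points, adjusted p = 0.0198), and Div8pos averaged 41.7%. The Il10 call was lost with a 5 kb window (-5.14 points, adjusted p = 0.630), with the 4 libraries alone (adjusted p = 0.0529) and with each library left out. The Mir146 locus, 15 CpGs, was at 75.3 and 74.8% at Div5 and 86.0 and 86.1% at Div0 (-10.9 points, adjusted p = 0.00895), and averaged 65.1% in Div8neg and 51.6% in Div8pos. It produces miR-146a, which dampens Toll-like receptor signalling in mice, and the mature strand is printed with its seed, bases 2 to 8, in capitals.
mmu-miR-146a-5p: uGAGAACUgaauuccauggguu
The remaining lower genes were Mlxip, a glucose-responsive transcription factor (-17.2 points), Unc119 (-15.2, and -9.75 with a 5 kb window, adjusted p = 0.788), Gm14005 (-13.7), Rab30, a small GTPase (-13.6), Pex16, a peroxisome biogenesis factor (-13.1), Susd3 (-12.4) and Ifi30, a lysosomal thiol reductase (-10.3). Mlxip had 5 CpGs, and its mean rests largely on the 1 called CpG, chr5:123869161, which differed by -83.3 points. The 1 higher gene was Cd93, a receptor that plasma cells need to persist in mouse bone marrow. It was at 28.2 and 23.2% at Div5 and 15.2 and 15.4% at Div0 (+10.4 points, adjusted p = 0.0225), and averaged 24.4% in Div8neg and 23.8% in Div8pos. Cd93 was not called in 3 of the 4 fits that left out a library. Just outside the limit on size lay Rap1a (-9.85 points, limma adjusted p = 0.00182) and BC049352 (-9.69 points, adjusted p = 0.0211). The largest differences that missed the adjusted p were at Gm8817 (-15.0 points, adjusted p = 0.165) and Tvp23a (-14.4 points, adjusted p = 0.0752).

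**Figure D5:**
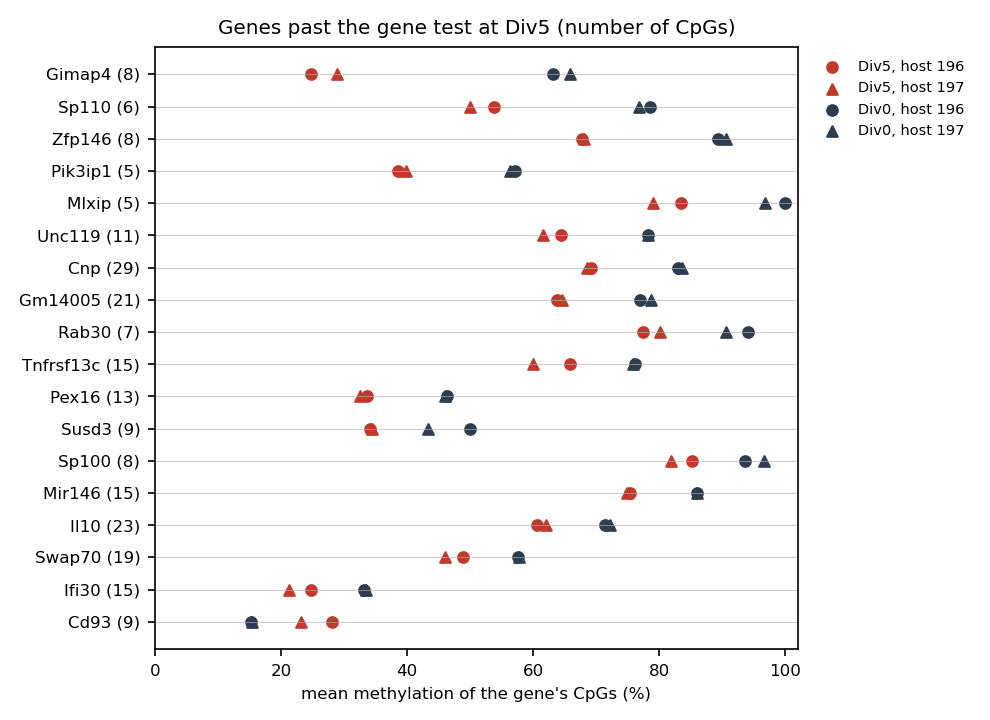
Mean methylation (%) of the CpGs with the symbol of the 17 genes lower and the 1 gene higher at Div5, within 50 kb of the nearest start. Circles are host 196, triangles host 197, and the number of CpGs is in brackets. For each gene both Div5 symbols lie on the same side of both Div0 symbols, to the right for Cd93 alone.

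Genes were also grouped by role. In the B cell identity list 32 of 40 genes were measured, with a median difference of -1.81 points beside -0.606 for all genes. There 6 genes passed the adjusted p as lower, none by 10 points, and 33 of its 2978 CpGs (1.11%) were lower beside 0.123% of all CpGs, in 11 genes. Cd83, a surface marker of activated B cells, was at 76.4 and 75.2% at Div5 and 85.8 and 84.6% at Div0 (-9.41 points), and its intronic region (chr13:43882304-43882542) was at 27.0 and 19.7% at Div5 and 74.3 and 67.4% at Div0. Also among the 6 were Blnk (-7.82 points), Syk, a tyrosine kinase of the B cell receptor (-5.85), Cd22, an inhibitory lectin (-4.46), and Foxp1, a transcription factor of mature B cells (-4.16). A Foxp1 intronic region at chr6:99231729-99231858 was at 6.93 and 7.81% at Div5 and 53.0 and 46.9% at Div0. Its mean was 23.0% in Div8neg and 3.19% in Div8pos. Bach2, Bcl11a, Ikzf1 and Pou2f2, transcription factors of B cells, had 2 lower CpGs each, and their gene means had adjusted p-values of 0.206, 0.602, 0.764 and 0.0643.

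In the plasma cell list, 32 of 35 measured with a median of -1.20 points, Il10 was lower, Cd93 higher, and 10 of 1530 CpGs (0.654%) were lower. Of those 5 lay in Il10, 4 in Atxn1 and 1 in Txndc5. The regulators of plasma cell fate did not pass: Prdm1 differed by +0.133 points (adjusted p = 0.974), Irf4 by +0.343 points and Xbp1 by -1.25 points. These means leave out CpGs without a symbol. Between Irf4 and Exoc2 a region of 3 such CpGs, chr13:30874344-30874490, lies 33217 bp from Irf4. It was at 20.9 and 21.6% at Div5 and 87.1 and 84.6% at Div0, and is named after its values were seen. The Toll-like receptor and NF-kB list, 34 of 41 measured with a median of -1.03 points, had 2 genes lower by adjusted p. Nfkbia encodes the NF-kB inhibitor IkBα and was at 61.8 and 61.3% at Div5 and 69.3 and 69.1% at Div0 (-7.66 points, adjusted p = 0.00182). Its exonic region, chr12:56591499-56591637, was at 34.8% in both hosts at Div5 and 92.2 and 90.2% at Div0, and averaged 4.36% in Div8pos. Tlr6, a receptor for bacterial lipopeptides, fell by 9.22 points, with 3 of its 4 lower CpGs in the promoter. Irak2, a kinase of the pathway, and Ly86, which pairs with the Toll-like receptor homologue RP105, had 2 lower CpGs each and no gene call.

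In the PI3K and Foxo list 25 of 25 genes were measured, with a median of -0.993 points and 20 of 1697 CpGs lower (1.18%). Of these 20, 9 carry the symbol Pik3r2 and lie in the region whose nearest start is that of Ifi30. By limma adjusted p 2 genes were lower, Pik3ip1 and Pik3r2 (-9.44 points, adjusted p = 0.00308). In the migration list, 17 of 22 measured with a median of -0.746 points, 8 of 528 CpGs were lower (1.52%), in Cnr2, S1pr1 and Ccr6. Cnr2, the cannabinoid receptor of B cells, and S1pr1, the receptor that leads lymphocytes out of tissue, were lower by 8.12 and 7.69 points. A promoter CpG of the chemokine receptor gene Ccr6, chr17:8436811, averaged 3.85 ± 5.44% at Div5 and 63.6 ± 21.1% at Div0 (SD, n = 2 hosts each). The cell cycle list had 0 of 37 measured genes called by limma (3 lower and 1 higher at an unadjusted p under 0.05), a median of -0.502 points and 7 lower CpGs (0.433%), 6 of them in the Cdk6 region and 1 at Rb1. The DNA methylation machinery list had 0 of 28 called by limma (2 lower at an unadjusted p under 0.05), a median of -0.657 points and 5 lower CpGs (0.387%), 4 in the promoter and 5′ UTR of Zbtb38, a reader of methylated DNA, and 1 upstream of Tet2. The Zbtb38 region was at 48.7 and 42.5% at Div5 and 85.6 and 81.8% at Div0. The unfolded protein response list had 0 of 36 genes called by limma (2 lower at an unadjusted p under 0.05), a median of -0.736 points and 3 lower CpGs (0.18%), at Canx, Atf4 and Spcs2. In the T cell list 0 of 16 genes were called by limma (4 lower and 1 higher at an unadjusted p under 0.05, median -0.334 points), and 5 of its 7 lower CpGs (0.681%) formed a region upstream of Tcf7, the T cell factor TCF-1, at 34.3 and 22.1% at Div5 and 74.6 and 80.5% at Div0.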

How the data were processed

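Genomic DNA of 12 libraries, 6 division fractions from each of 2 hosts, was sequenced by RRBS. The authors deposited counts of methylated and unmethylated reads and the methylated fraction for each CpG with at least 10 reads in all libraries, with the nearest gene, annotation class and distance to a start. The submitters' processing notes name Bismark, Bowtie2 and mm9, without versions or filters. The deposited fraction equalled methylated over total counts within 5.551e-16. Levels were computed from the counts as percent.

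Each CpG was tested by a quasi-binomial deviance test on the counts, with Benjamini-Hochberg adjustment over 760348 CpGs. The dispersion was pooled over the 12 libraries by limma's squeezeVar (1.157, never below 1), which gave all CpGs the same value. Gene means (at least 5 CpGs within 50 kb of the nearest start) were fitted with limma 3.58.1 in R 4.3.3 over the 12 libraries. Python 3.11.15, numpy 2.4.6, pandas 2.3.3 and scipy 1.17.1 were used. Code was tested on simulated data. Symbols were missing for 65092 CpGs. One gene of the lists is not reported here by name. The libraries of a host come from the same animal, so host numbers pair them. The deviations of same-host Div5 and Div0 libraries correlated at 0.00464 over 69541 CpGs. The fit without host is the one reported. Read coverage of the 2 hosts' libraries was compared to look for a library deposited more than once, and differed beyond sampling noise (chi-square per degree of freedom 1.22 at Div5 and 1.35 at Div0).

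Named are the 10 lower and 10 higher genes, regions and single CpGs of largest difference or most called CpGs, the genes with the most called CpGs, and list genes with a called gene, a region or at least 2 called CpGs. The comparison, lists and rules were chosen with earlier results of these data known. Alternatives were the coverage minimum, size limits, dispersion, limma on percentages, single hosts, left-out libraries, a host block, the gene window and the CpG minimum.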

Additional observations from a re-analysis of the deposited data

How the results depend on the processing

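Of the values recomputed for the comparisons under the alternatives, 58 stayed within 1.5 times or the replicate spread and 39 moved. The 936 lower CpGs became 601 with at least 20 reads, 278 with limma on percentages, 76 in host 196 alone and 0 with each CpG's own dispersion, and 273 to 930 with a library left out. The 42 higher CpGs became 22 with a limit of 30 points, 8 with limma, 2 in host 196 alone, 0 with own dispersion, and 5 to 32 with a library left out. A replicate block by host gave 832 lower CpGs, 829 of them shared, 30 higher CpGs, 85 regions and 17 lower genes, and changed no other call of the comparisons. Regions numbered 42 with at least 4 CpGs and 21 to 86 with a library left out, and higher regions 0 to 2. The mean difference of -0.79 points was -2.35 points from summed reads and -0.996 to -0.584 with a library left out. Lower genes numbered 10 with at least 10 CpGs, 65 with a limit of 5 points, 77 with none, 9 from 4 libraries, 19 with a 5 kb window (5 shared with the 17) and 5 to 11 with a library left out. Higher genes numbered 0 with at least 10 CpGs, 2 with no limit, 0 from 4 libraries and 0 to 1 with a library left out. Of higher CpGs 76.2% kept at least 0.5 of their gain in Div8neg, and of those chosen in host 196 0.0% were followed in host 197 in either division 8 fraction. The share of lower CpGs also lower ran between 81.3 and 97.4% in Div8neg and between 87.8 and 100% in Div8pos. Among the named genes 65 results stayed, 61 lost the call and Swap70 reversed, to +0.836 points with a 5 kb window. The alternatives of at least 20 points in each host (793 lower, 29 higher) and without the chromosome 8 stretch (916) were chosen after seeing the data. The cause of these shifts was not tested. Median coverage was 23 and 20 reads in the Div5 and Div0 libraries of host 196, and 57 and 52 reads in those of host 197.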

Other observations

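Besides the T cell list, which held 7 lower CpGs, 5 lists of genes from other cell types or settings were measured and held no called CpG. The NK cell list (6 of 8 genes measured, median difference -0.934 points), the myeloid list (15 of 23, -0.511), the erythroid list (5 of 11, -0.931), imprinted genes (26 of 32, -0.727) and germline genes (23 of 26, -0.403) each had 0 genes called by limma and 0 CpGs called by the quasi-binomial test, beside a median of -0.606 points over all genes and 0.123% of all CpGs lower. At an unadjusted p under 0.05 the lower genes numbered 1 in the NK cell, 3 in the myeloid, 0 in the erythroid, 1 in the imprinted and 1 in the germline list, and the lower CpGs 15, 21, 7, 45 and 21 in the same order. The higher CpGs numbered 4, 14, 0, 35 and 10, out of 270, 486, 106, 1464 and 636 CpGs. The imprinted list had 1 higher gene and the others 0. Of all 760348 CpGs, 37290 were lower and 15404 higher at that p, and of 16505 genes 1555 were lower. Within the imprinted list the gene means ran between -4.81 points at Magel2 and +5.18 points at Nespas, and neither passed the limma test. The 5 lists hold between 106 and 1464 CpGs each, in which a share of 0.123% comes to under 2 CpGs.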
